A study of Mus musculus with 1 sample.

Results

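The DNA methylation writers and Tet erasers of the mouse are 7 genes that encode the enzymes that add or oxidise methyl groups on DNA, together with the protein that guides the copying enzyme, and their transcripts were followed here through the early cells of the marrow. The members were chosen by gene symbol, and all 7 of them (Dnmt1, Uhrf1, Dnmt3a, Dnmt3b, Tet1, Tet2 and Tet3) were found among the 32285 genes of the deposited counts. The data came from 1 single-cell RNA-seq library, replicate 1 of the group WT_HSPC, made from lineage-negative, Kit-positive bone marrow cells of femora and tibiae. The mice were of the C57BL/6 strain and carried Brd9 fl/fl, floxed alleles of a subunit of the non-canonical BAF chromatin remodelling complex, and per the study's methods they had no Mx1-Cre, so that Brd9 was left intact. They had received polyinosinic-polycytidylic acid (pIpC), an inducer of interferon that in the study also serves to switch on the Cre of the deleted group, at 20 mg/kg in 3 doses given every other day, and cells were taken 8 weeks later. The sample's labels name a CD45.2(+) Brd9fl/fl donor and a CD45.1(+) CD45.2(-) recipient with pIpC 4 weeks after transplantation, whereas the series text speaks of primary mice injected 4 weeks after birth, and which of them applies was not settled. The number of mice and their sex are not given in the sources used here. The Brd9-deleted cells are not analysed here, and 1 library allows no test: all intervals below are 95% intervals that cover counting error only, and every difference is between cells of the same library.

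DNA methylation in mammals sits mainly on the cytosine of CpG dinucleotides and is copied at each cell division. Dnmt1 is the maintenance methyltransferase, which methylates the new strand after replication, and Uhrf1 recruits it by binding hemimethylated CpG sites. Dnmt3a and Dnmt3b place methyl groups on unmethylated DNA, and Tet1, Tet2 and Tet3 oxidise 5-methylcytosine to 5-hydroxymethylcytosine and further products, a route to its removal. In blood, DNMT3A and TET2 are among the genes most often mutated in clonal haematopoiesis and myeloid neoplasms, and loss of Dnmt3a or Tet2 in mice is known to enlarge the stem cell compartment.

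The genes lie on 7 different chromosomes (GRCm38, GENCODE M21): Dnmt1 at chr9:20907209-20959888 and Tet1 at chr10:62804570-62908996 on the minus strand, as are Tet2 at chr3:133463679-133545139 and Tet3 at chr6:83362373-83459084, and Uhrf1 at chr17:56303321-56323486, Dnmt3a at chr12:3806007-3914443 and Dnmt3b at chr2:153649450-153687730 on the plus strand. Dnmt3a, Dnmt3b, Tet2 and Tet3 each overlap an annotated gene on the opposite strand, and Dnmt1, Tet1 and Tet3 each overlap one or more small genes on their own strand, whose reads cannot be told apart from theirs where they share exons. RefSeq promoter windows on GRCm38.p6, which run from 250 bases before to 50 bases after a transcript start, were found for all 7 members (12 windows). 4 are shown, 1 for each gene of the pair whose transcripts followed S phase, 1 for Dnmt3b and 1 for Tet1. Of the 3 Dnmt1 and 2 Uhrf1 windows, the ones shown were picked because they hold a match to the strings below, and the other 3 hold none. All 12 were searched on both strands for TTTGGCGC and TTCCCGC, letter strings of the type bound by E2F factors, which are known to drive S-phase genes. Capitals mark these strings, and lines without capitals hold neither. The windows are Dnmt1 at chr9:20952574-20952873 (minus strand), Uhrf1 at chr17:56303087-56303386 (plus strand), Dnmt3b at chr2:153649199-153649498 (plus strand) and Tet1 at chr10:62887275-62887574 (minus strand).
Dnmt1 promoter window: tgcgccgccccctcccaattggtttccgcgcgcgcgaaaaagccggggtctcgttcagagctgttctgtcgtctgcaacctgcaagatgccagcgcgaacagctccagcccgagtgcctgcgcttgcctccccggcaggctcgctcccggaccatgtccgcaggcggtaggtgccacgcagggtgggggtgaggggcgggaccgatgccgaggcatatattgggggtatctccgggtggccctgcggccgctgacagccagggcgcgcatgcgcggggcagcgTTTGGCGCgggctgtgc
Uhrf1 promoter window: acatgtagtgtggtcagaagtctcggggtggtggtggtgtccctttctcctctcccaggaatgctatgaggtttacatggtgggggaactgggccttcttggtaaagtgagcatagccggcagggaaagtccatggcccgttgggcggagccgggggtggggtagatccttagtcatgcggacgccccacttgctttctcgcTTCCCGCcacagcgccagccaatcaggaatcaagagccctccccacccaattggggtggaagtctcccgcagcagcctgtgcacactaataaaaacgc
Dnmt3b promoter window: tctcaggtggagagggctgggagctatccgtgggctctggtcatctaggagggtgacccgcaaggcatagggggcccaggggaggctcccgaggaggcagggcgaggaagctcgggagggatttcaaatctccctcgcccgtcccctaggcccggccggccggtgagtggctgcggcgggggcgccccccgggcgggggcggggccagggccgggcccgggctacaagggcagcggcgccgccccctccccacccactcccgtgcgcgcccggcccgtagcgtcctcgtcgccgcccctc
Tet1 promoter window: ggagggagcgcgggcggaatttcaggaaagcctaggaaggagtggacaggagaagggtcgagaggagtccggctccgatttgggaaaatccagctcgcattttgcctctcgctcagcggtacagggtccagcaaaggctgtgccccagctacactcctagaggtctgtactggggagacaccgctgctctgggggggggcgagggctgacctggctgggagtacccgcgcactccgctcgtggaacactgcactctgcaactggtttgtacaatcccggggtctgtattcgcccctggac

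TTTGGCGC began 34 bases after the start in the Dnmt1 window, and TTCCCGC began 48 bases before the start in that of Uhrf1, while the other 10 member windows held neither string. Of 32851 mouse promoter windows of this length, 0.514% held TTTGGCGC, 4.60% held TTCCCGC and 5.06% held at least one of them. The windows also differed in CpG content: that of Tet2 held 57 CpG dinucleotides, more than 99.8% of all windows, and the 3 of Dnmt3a held 18 to 47, against a median of 7. Those shown held 33 (Dnmt1), 12 (Uhrf1), 30 (Dnmt3b) and 17 (Tet1). A match is a description of these letters and not a measured binding site. The Dnmt1 match lies at the most downstream of the 3 Dnmt1 starts, and which start these cells used was not tested.

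The study's cell filter kept 7645 of 8817 cell barcodes, and 7546 of them had 5000 or more unique molecular identifiers (UMIs, which count each captured transcript once) and were analysed, with a median of 18851 UMIs and 4187 genes. Marker genes placed 5686 cells into 13 classes and left 1860 (24.6%) ungated, and 2046 cells (27.1%) lay near a limit of the gates. The classes are called like a cell type by their markers, except that 55 cells led by immunoglobulin genes, Ebf1 and Rag1 are called B-lineage gene cells and 22 cells led by Trbc1 and Tcf7 are called T or NK gene cells. Kit, the gene of the receptor used in the sort, was measured at 277 counts per 1000000 UMIs (CPM) in stem-like cells (interval 263 to 292), and was lowest in later erythroid-like cells at 9.04 (7.27 to 11.1). Transcripts of 4 neutrophil granule genes (Elane, Mpo, Prtn3 and Ctsg) made up 3.12% of UMIs in early neutrophil-like cells. As one measure of free RNA, they made up 0.0408% in early erythroid-like cells, the lowest share of the 13 classes, and 0.172% in later erythroid-like cells. Both are classes that should lack them.

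Cells were also called G1, S or G2/M from 40 S and 54 G2/M genes, a call that is a range of a score and not a measured cell cycle. As a check, 6 S-phase genes outside those lists (Mcm3, Lig1, Pole, Chaf1a, Dut and Tk1) summed to 490 CPM in G1-called, 1377 in S-called and 1130 in G2/M-called gated cells. The share of G1 calls was 86.7% of the 533 stem-like cells (interval 83.5 to 89.4), 36.8% of Flt3 progenitor-like, 32.5% of megakaryocyte-like, 12.3% of early neutrophil-like, 5.04% of monocyte-like and 5.88% of early erythroid-like cells, and no later erythroid-like cell of 333 was called G1, which allows a share of up to 1.10%. A G1 call did not mean the same in every class: the check genes summed to 250 in G1-called stem-like and 246 in G1-called dendritic-like cells, but to 845 in monocyte-like and 852 in early neutrophil-like ones. These sums are given beside several of the phase results below, but not all, and their part in them was not tested.

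Over all gated cells, the summed UMIs behind the values were 19617 for Dnmt1, 11436 for Uhrf1, 4964 for Tet3, 3306 for Dnmt3a, 3201 for Tet2, 1762 for Dnmt3b and 1637 for Tet1. At least 1 UMI was seen in 82.5% of the cells analysed for Dnmt1 and in 21.7% for Tet1, and after thinning each cell to 5000 UMIs in 51.2% and 8.51%, so single cells say little about the rarer members and sums over classes were used throughout. A level is the summed UMIs of a gene in CPM over the same cells. Levels of one gene are compared between classes, and not between genes.

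Dnmt1 and Uhrf1, the maintenance pair, were highest in later erythroid-like cells and lowest in stem-like cells. Dnmt1 stood at 227 CPM in later erythroid-like cells (interval 217 to 236) and at 101 in stem-like cells (92.7 to 111), a ratio of 2.24 (2.03 to 2.47). Megakaryocyte-like cells, at 221, did not differ from the later erythroid-like class beyond counting error, and monocyte-like (181), early erythroid-like (176) and Flt3 progenitor-like cells (162) followed. The remaining 7 classes lay between 132 and 143 and none of the neighbours among them differed beyond counting error, while the step down to stem-like cells did (ratio 1.31, 1.15 to 1.49). That step depends on the cell filter. With a mitochondrial share under 5%, stem-like cells were at 124, inside the interval reported for dendritic-like cells (120 to 146). Uhrf1 spanned a wider range, from 202 in later erythroid-like cells (194 to 211) through 132 in early erythroid-like and 101 in monocyte-like cells to 34.5 in stem-like cells (29.5 to 40.0), a ratio of 5.87 (5.02 to 6.89). For both genes 8 of the 12 neighbouring classes in the order were within counting error of each other. The erythroid classes led for Uhrf1 but megakaryocyte-like cells, which share that high Dnmt1 level, had Uhrf1 at 90.3 (84.8 to 96.0), below early erythroid-like cells by a ratio of 0.68 (0.64 to 0.73).

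**Figure D1:**
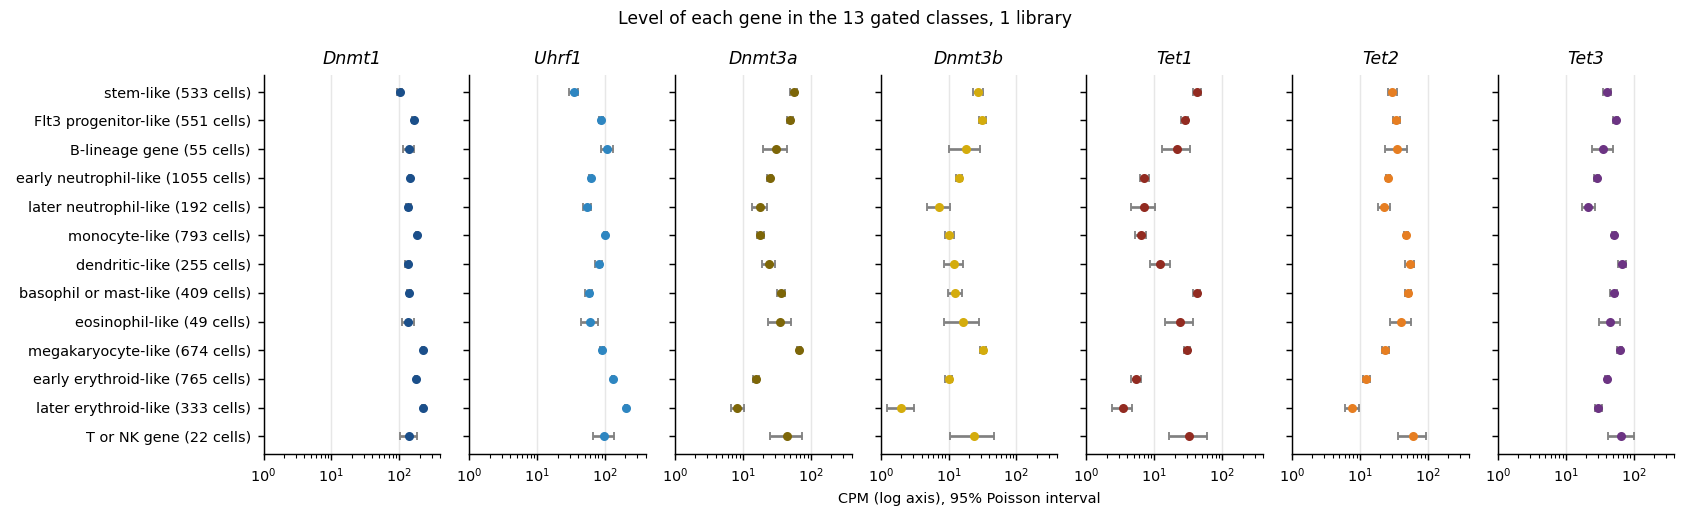
Level of each of the 7 genes (x axis, CPM, log scale) in the 13 gated classes of the library (y axis), with 95% Poisson intervals. Dnmt1 and Uhrf1 are lowest in stem-like cells, whereas Dnmt3a, Dnmt3b and Tet1 are lowest in later erythroid-like cells at 8.34, 2.01 and 3.42.

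Cells of these classes differ in size as well as in composition. The median stem-like cell had 8321 UMIs and the median early erythroid-like cell 34084, so per cell the maintenance pair differed more than the levels did: 0.953 Dnmt1 UMIs and 0.325 Uhrf1 UMIs per stem-like cell, against 6.77 and 6.05 per later erythroid-like cell. For Dnmt3a the reverse held. Its level was 3.65 times higher in stem-like than in early erythroid-like cells (interval 3.11 to 4.27), but a stem-like cell gave 0.529 Dnmt3a UMIs and an early erythroid-like cell 0.493, so the difference was one of concentration among transcripts and hardly one of UMIs per cell. Tet1 was higher in stem-like cells on both counts, with 0.405 UMIs per cell against 0.173.

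By phase, the maintenance pair was higher in S-called cells than in G1-called cells and the other members were not. Over the 1562 S-called and 1396 G1-called gated cells, Dnmt1 stood at 201 against 98.1 CPM (ratio 2.05, interval 1.94 to 2.17) and Uhrf1 at 146 against 33.4 (ratio 4.38, 4.01 to 4.80). These were the 2 members higher by at least 1.5-fold with an interval off 1, a call that 10.4% of the 12207 genes with 50 or more UMIs received. The ratio of Uhrf1 was above that of 98.4% of these genes and the ratio of Dnmt1 above that of 95.4%. The members lower by the same rule were 2, Dnmt3a (32.2 against 51.0, ratio 0.63, 0.58 to 0.69) and Tet1 (13.8 against 31.3, ratio 0.44, 0.39 to 0.50), beside 28.6% of all genes, and the median gene itself had a ratio of 0.87. Dnmt3b (0.79), Tet2 (0.77) and Tet3 (0.86) were within 1.5-fold. Set relative to the median gene, a scaling chosen after the data were seen, Dnmt1 was at 2.35, Uhrf1 at 5.02 and Tet1 at 0.505, while Dnmt3a, at 0.723, was no longer past 1.5-fold.

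The pooled comparison mixes classes, because 462 of the 1396 G1-called cells were stem-like and 31 of the 1562 S-called ones were. Within the 9 classes that had 20 or more cells in both phases, the Dnmt1 ratio lay between 1.45 and 4.41 with an interval above 1 in 9 of 9, and the Uhrf1 ratio between 1.37 and 13.1 with an interval above 1 in 8 of 9, later neutrophil-like cells being the exception at 1.59 (0.94 to 2.84). In stem-like cells Uhrf1 stood at 176 in S and at 13.4 in G1, a ratio of 13.1 (9.12 to 18.8), above that of 99.95% of the 8523 genes compared there, and Dnmt1 at 296 against 67.2 (ratio 4.41, 3.56 to 5.44). Dendritic-like cells gave nearly the same ratios, 11.0 for Uhrf1 (6.61 to 19.4) and 4.40 for Dnmt1 (3.23 to 6.05). In early neutrophil-like cells the ratios were only 1.37 (1.15 to 1.65) and 1.49 (1.31 to 1.71). The S-phase check genes moved with this: from G1 to S calls they went from 250 to 1396 CPM in stem-like cells and from 246 to 1375 in dendritic-like cells, but from 852 to 1158 in early neutrophil-like cells.

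Averaged over the 9 classes with each class compared with itself, a summary added after the data were seen, the ratios were 1.99 for Dnmt1 (1.87 to 2.11) and 3.36 for Uhrf1 (3.06 to 3.68). The lower values of Dnmt3a and Tet1 shrank in that average, to 0.90 (0.81 to 0.9996) and 0.79 (0.68 to 0.91), and Dnmt3b changed side, to 1.17 (1.01 to 1.37). Tet2 was at 0.80 (0.71 to 0.91) and Tet3 at 0.92 (0.83 to 1.01). The interval of the S over G1 ratio held 1 for Dnmt3b in 9 of 9 classes, for Tet3 in 8, and for Dnmt3a, Tet1 and Tet2 in 7 of 9. In the early erythroid-like class Dnmt3a was at 0.52 (0.32 to 0.91), Tet1 at 0.26 (0.13 to 0.60), Tet2 at 0.34 (0.20 to 0.61) and Tet3 at 0.56 (0.39 to 0.84). Its G1 side had 45 cells and between 8 and 32 UMIs of each of these genes and of Dnmt3b. The S-phase check genes went from 355 to 1690 CPM there. Dnmt3a, Tet1 and Tet2 each had an interval below 1 in 2 of 9 classes. From G1 to S, Tet1 also went from 66.0 to 35.6 in basophil or mast-like cells and Tet2 from 27.2 to 15.6 in megakaryocyte-like cells. Dnmt3a went from 62.0 to 46.1 in Flt3 progenitor-like cells.

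**Figure D2:**
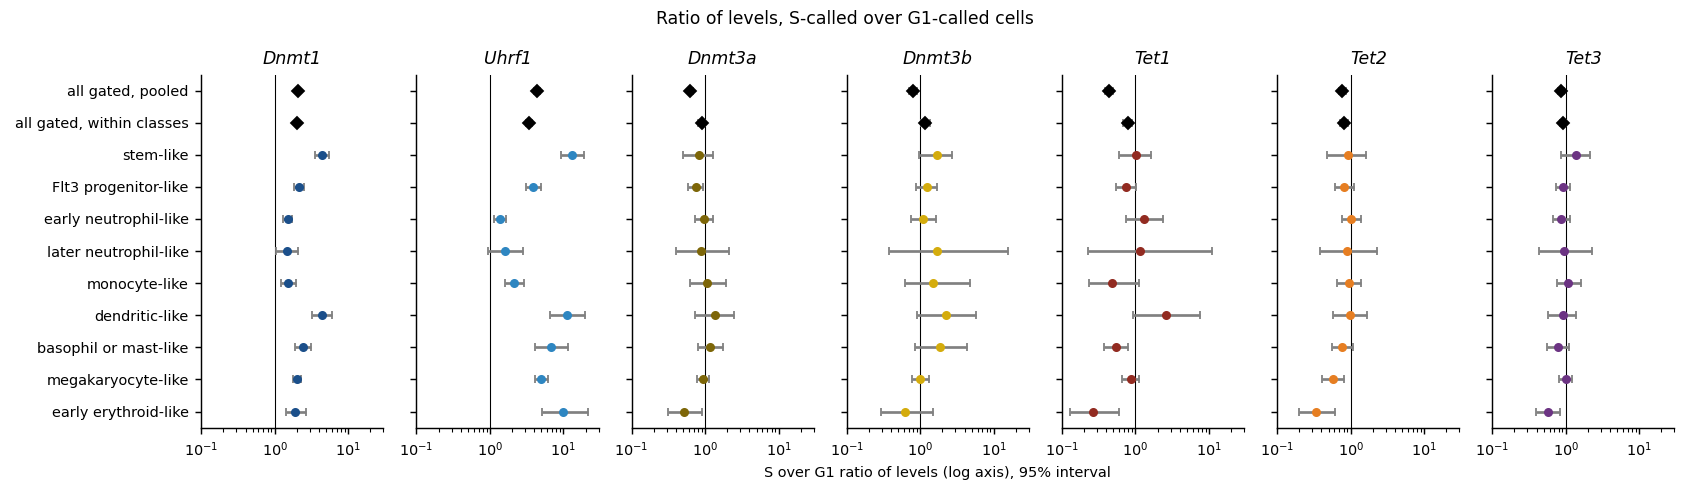
Ratio of the level in S-called over G1-called cells (x axis, log scale, 95% intervals) for each gene, over all gated cells pooled, as an average within classes (black diamonds) and in each of 9 classes (coloured points). Uhrf1 and Dnmt1 lie to the right of 1 in every class, and the pooled values of Dnmt3a (0.63) and Tet1 (0.44) lie further left than their averages within classes (0.90 and 0.79).

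In G2/M-called cells Dnmt1 was above G1 in 8 of 9 classes with an interval off 1, and Uhrf1 in 6 of 9. Uhrf1 was below G1 in early neutrophil-like cells (47.1 against 63.6 CPM, ratio 0.74, 0.62 to 0.89), and in later neutrophil-like (0.88) and monocyte-like cells (0.88) its interval held 1. The averages within classes were 1.51 for Dnmt1 (1.43 to 1.61) and 1.51 for Uhrf1 (1.37 to 1.66). In monocyte-like cells Uhrf1 stood at 72.7 CPM in G1, 154 in S and 63.9 in G2/M, and in Flt3 progenitor-like cells at 41.3, 160 and 65.5. The S-phase check genes moved with these values, at 845, 1310 and 813 in monocyte-like and 501, 1273 and 796 in Flt3 progenitor-like cells. Dnmt1 in Flt3 progenitor-like cells was at 102, 216 and 162. On average within classes Dnmt3a was lower in G2/M than in G1 (0.73, 0.66 to 0.81), with an interval below 1 in 4 of 9 classes. Tet1 was at 0.71 (0.62 to 0.81), with an interval below 1 in 5 of 9, and its class ratios reached up to 1.80. Tet3 was at 0.86 (0.79 to 0.94), Tet2 at 0.91 (0.82 to 1.02) and Dnmt3b at 0.99 (0.85 to 1.14).

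Ordering all gated cells by their S score, into deciles of 568 or 569 cells, used no phase calls. Uhrf1 was at 13.1 CPM in the lowest decile (interval 10.4 to 16.4), 71.5 in the fifth and 205 in the highest (198 to 213), and Dnmt1 at 64.7, 159 and 234. Both were higher in each decile than in the one before. Tet1 went the other way, from 36.5 in the lowest decile to 7.79 in the highest, as did Dnmt3a from 44.5 to 18.1, Tet2 from 40.2 to 17.0 and Dnmt3b from 26.1 to 7.99, whereas Tet3 lay between 39.4 and 51.6 in all deciles. The deciles differ in their classes as the phases do.

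**Figure D3:**
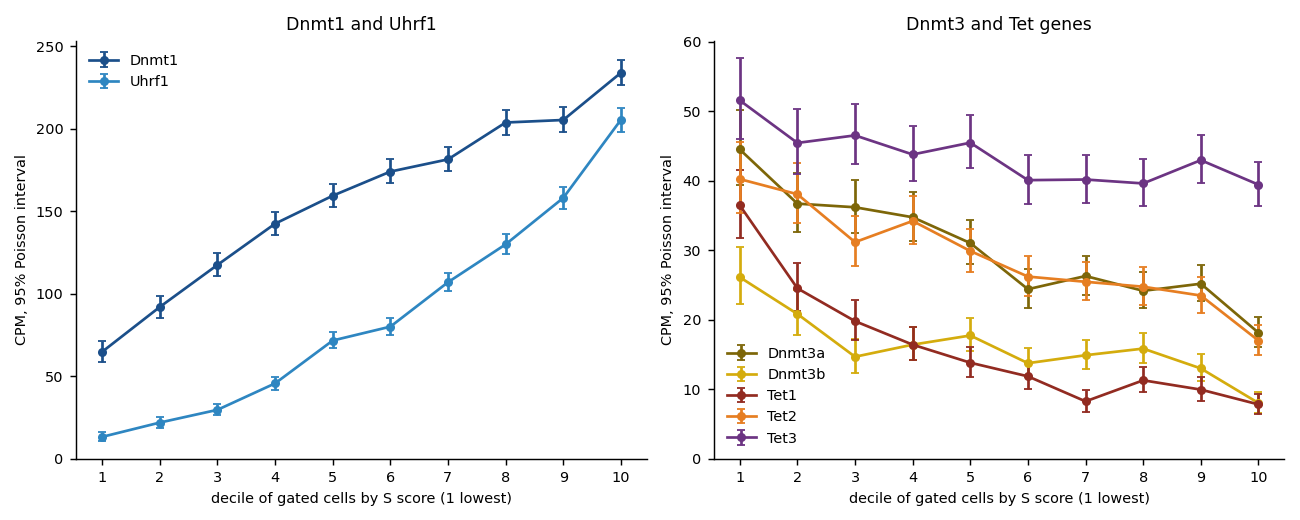
Level of each gene (y axis, CPM, 95% Poisson intervals) in deciles of the gated cells ordered by S score (x axis), for Dnmt1 and Uhrf1 (left) and the Dnmt3 and Tet genes (right). Uhrf1 goes from 13.1 in the lowest to 205 in the highest decile, and Tet1 from 36.5 to 7.79.

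The de novo enzymes Dnmt3a and Dnmt3b were highest in the stem-like, Flt3 progenitor-like and megakaryocyte-like classes. Dnmt3a was measured at 66.5 CPM in megakaryocyte-like cells (61.8 to 71.4), 56.2 in stem-like cells (49.9 to 63.2) and 49.8 in Flt3 progenitor-like cells (45.4 to 54.5), of which the first lay above the next beyond counting error (ratio 1.18, 1.03 to 1.36) and the other neighbours did not differ. It was at 36.8 in basophil or mast-like, 25.0 in early neutrophil-like, 24.1 in dendritic-like, 18.2 in monocyte-like, 15.4 in early erythroid-like and 8.34 in later erythroid-like cells (6.64 to 10.3). The highest class was thus 7.97 times the lowest (6.34 to 10.1). Dnmt3b had its highest values in the same classes, 32.3 in megakaryocyte-like, 31.4 in Flt3 progenitor-like and 27.3 in stem-like cells, with no difference beyond counting error between neighbours, and its lowest at 2.01 in later erythroid-like cells (1.23 to 3.104), which rests on 20 UMIs in 333 cells. The ratio of the highest class to the lowest was 16.1 (10.3 to 26.6).

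At matched S calls the de novo pair was again higher in megakaryocyte-like cells than in early erythroid-like and early neutrophil-like ones. Megakaryocyte-like cells had Dnmt3a at 69.5 against 19.9 in early erythroid-like cells (ratio 3.50, 2.80 to 4.39, beside 4.31, 3.804 to 4.89, over all phases) and Dnmt3b at 33.8 against 10.5 (3.23, 2.36 to 4.47, beside 3.21, 2.72 to 3.79), while Uhrf1 was 174 against 185 (0.94, 0.85 to 1.04). Dnmt1 was at 295 against 181 in that comparison. Against early neutrophil-like cells in S the megakaryocyte-like cells were higher in Dnmt3a by 2.68 (2.23 to 3.23) and in Dnmt3b by 2.22 (1.72 to 2.86), beside a median gene ratio of 1.32. The maintenance pair was higher there too, Dnmt1 at 295 against 165 and Uhrf1 at 174 against 87.4. The S-phase check genes were at 1360 in S-called megakaryocyte-like, 1690 in early erythroid-like and 1158 in early neutrophil-like cells. Against Flt3 progenitor-like cells in S they had 1.51 times the Dnmt3a level (1.21 to 1.88), whereas Dnmt3b did not differ beyond counting error (0.96, 0.73 to 1.27).

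The Tet genes each had another pattern over the classes. Tet1 was highest in stem-like cells at 43.1 CPM (37.5 to 49.2) and in basophil or mast-like cells at 42.2 (37.1 to 47.8), which did not differ beyond counting error, followed by the 22 T or NK gene cells at 33.0 (16.5 to 59.1, from 11 UMIs), megakaryocyte-like cells at 30.5 and Flt3 progenitor-like cells at 28.3. It was between 3.42 and 7.18 in the neutrophil-like, monocyte-like and erythroid-like classes. Basophil or mast-like cells exceeded monocyte-like cells in Tet1 by 6.70 (5.32 to 8.50), the ratio of 97.2% of genes lying below, although these 2 classes had the same levels of Tet2 (51.0 and 47.9) and Tet3 (50.8 and 50.9) within counting error.

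Tet2 was highest in the classes of monocytes, dendritic cells and granule cells of the basophil or mast kind. It was at 54.5 in dendritic-like (46.6 to 63.2), 51.0 in basophil or mast-like (45.4 to 57.1) and 47.9 in monocyte-like cells (44.6 to 51.3), where neighbours did not differ beyond counting error, at 30.1 in stem-like cells and at 26.0 in early neutrophil-like cells. The 22 T or NK gene cells gave 60.1, from 20 UMIs (36.7 to 92.8). Tet2 was at 12.4 in early and 7.64 in later erythroid-like cells (6.02 to 9.56). In S-called cells the monocyte-like class had 1.78 times the Tet2 level of early neutrophil-like cells (1.49 to 2.14), 2.94 times that of megakaryocyte-like (2.22 to 3.94) and 3.81 times that of early erythroid-like cells (2.93 to 5.02). Tet2 of megakaryocyte-like cells was at 15.6 in S but at 27.2 in G1 and 28.5 in G2/M. Over all phases it was at 23.7 there, beside the 47.9 of monocyte-like cells.

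Tet3 varied least among the Tet genes, from 67.8 in dendritic-like cells (59.0 to 77.5) to 21.7 in later neutrophil-like cells (17.2 to 27.0), a ratio of 3.13 (2.41 to 4.09). Over all phases, unlike the other Tet genes, it kept its level in early erythroid-like cells, at 40.8 (38.3 to 43.4) against 40.5 in stem-like cells (35.1 to 46.4). In G1-called cells Tet3 was at 67.5 in the early erythroid-like class (46.2 to 95.3, 45 cells) against 38.0 in stem-like cells (32.2 to 44.6). Tet2 was there at 35.9 (20.9 to 57.5) against 31.2 (25.9 to 37.2). Over all phases Tet3 was at 62.5 in megakaryocyte-like, 55.1 in Flt3 progenitor-like and 50.9 in monocyte-like cells. Monocyte-like cells in S had 2.001 times the Tet3 level of early neutrophil-like cells in S (1.69 to 2.37).

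Set beside each other within a class, the Tet genes changed in proportion far more than the Dnmt3 pair did. A transcript is counted once from its 3′ end whatever its length, but capture can differ between genes, so the shares are compared between classes only. Tet1 made up 37.9% of the 570 Tet UMIs of stem-like cells (exact binomial interval 33.9 to 42.0) and 29.3% of those of basophil or mast-like cells (26.3 to 32.5), against 5.99% of the 1753 Tet UMIs of monocyte-like cells (4.92 to 7.20) and 9.22% in early erythroid-like cells (7.77 to 10.8). Tet2 made up 45.6% in monocyte-like (43.2 to 47.9) and 42.0% in early neutrophil-like cells (39.5 to 44.6), against 20.3% in megakaryocyte-like cells (18.2 to 22.6). Tet3 made up 69.6% in early erythroid-like (67.2 to 72.0) and 73.4% in later erythroid-like cells (68.8 to 77.6), against 35.6% in stem-like cells (31.7 to 39.7). The Dnmt3a share of the Dnmt3 pair was 65.2% over all gated cells and lay between 60.5% and 80.6% in every class. Its interval lay above that overall share in basophil or mast-like cells (74.6%, 69.2 to 79.5) and later erythroid-like cells (80.6%, 71.6 to 87.7), and below it in Flt3 progenitor-like (61.3%, 57.8 to 64.8) and early erythroid-like cells (60.5%, 56.6 to 64.4).

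**Figure D4:**
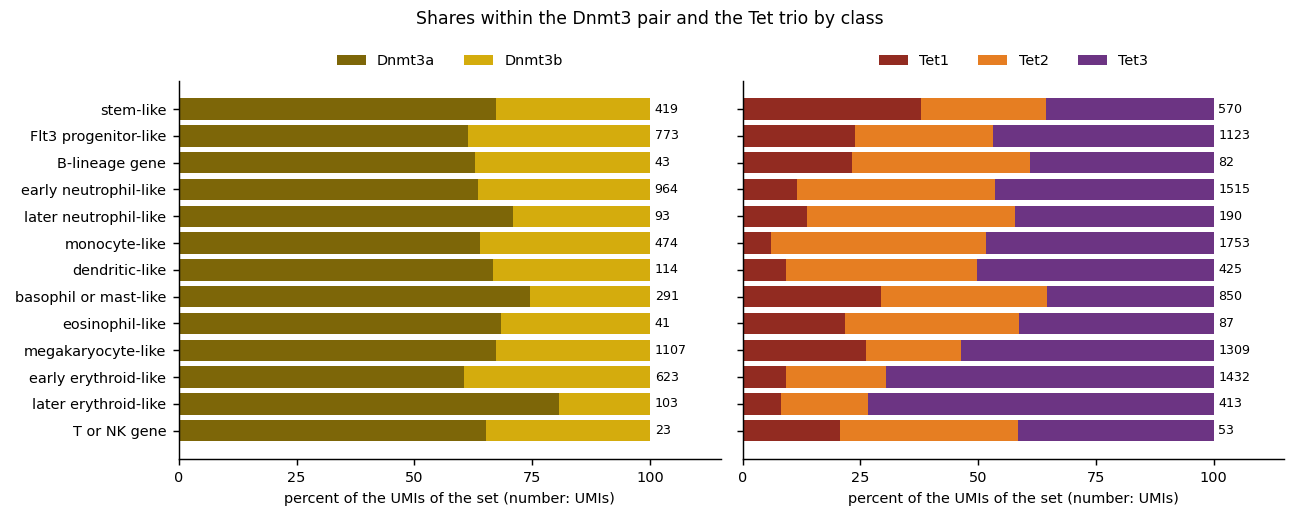
Percent of the UMIs of the Dnmt3 pair (left) and of the Tet trio (right) that came from each gene, by class, with the UMIs of the set at the end of each bar. Tet1 takes 37.9% of the Tet UMIs of stem-like cells and 5.99% of those of monocyte-like cells, and Tet3 takes 73.4% in later erythroid-like cells.

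Stem-like cells, set against all other gated cells, were low in the maintenance pair and high in Tet1, Dnmt3a and Dnmt3b over all phases, with smaller ratios of the latter in G1, where the compared cells also differed in class. Over all phases the stem-like ratios were 0.59 for Dnmt1 (0.54 to 0.64), 0.34 for Uhrf1 (0.29 to 0.40), 2.07 for Dnmt3a (1.82 to 2.33), 1.87 for Dnmt3b (1.56 to 2.22) and 3.37 for Tet1 (2.90 to 3.89), with the median gene at 1.21. Of 13067 genes, 76.0% had a ratio below that of Dnmt3a, 72.4% below that of Dnmt3b and 87.8% below that of Tet1. For Dnmt1 and Uhrf1 these shares were 15.4% and 7.52%. Among G1-called cells (462 stem-like and 934 other) they were 0.62 for Dnmt1 (67.2 against 108 CPM, 0.54 to 0.71) and 0.34 for Uhrf1 (13.4 against 39.9, 0.25 to 0.45), the 2 members lower by at least 1.5-fold, a call that 12.7% of 10972 genes received. In G1, Tet1 was at 1.47 (41.3 against 28.0, 1.22 to 1.78) and Dnmt3a at 1.22 (59.1 against 48.4, 1.04 to 1.42), Dnmt3b at 1.21 (0.95 to 1.53), and no member was higher by 1.5-fold, as 24.5% of genes were, with the median gene at 1.12. Tet2 was at 0.84 (0.68 to 1.03) and Tet3 at 0.69 (0.57 to 0.82). Relative to the median gene, Tet3 was at 0.614 and thus past 1.5-fold, Tet1 at 1.31, Dnmt3a at 1.09 (0.931 to 1.27) and Dnmt3b at 1.08.

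The largest classes among the 934 G1-called cells on the other side were megakaryocyte-like (219 cells) and Flt3 progenitor-like (203). Early neutrophil-like (130), basophil or mast-like (113) and dendritic-like cells (108) followed. The ratio varied with the class compared. For Dnmt3a it ran from 0.79 against megakaryocyte-like cells (0.66 to 0.95) and 0.95 against Flt3 progenitor-like cells (0.77 to 1.18) to 2.17 against early neutrophil-like (1.64 to 2.89) and 2.49 against monocyte-like cells (1.48 to 4.53). For Tet1 it was 1.14 against megakaryocyte-like cells (0.89 to 1.47), 1.05 against Flt3 progenitor-like cells (0.81 to 1.37) and 6.25 against early neutrophil-like cells (3.74 to 11.2), and stem-like cells were below basophil or mast-like cells (0.63, 0.47 to 0.84). Dnmt1 and Uhrf1 of G1-called stem-like cells did not differ beyond counting error from those of dendritic-like cells (1.16, 0.88 to 1.56, and 0.80, 0.46 to 1.45), whose S-phase check genes were at 246 against 250. Nor did either gene differ beyond counting error from basophil or mast-like cells (0.87, 0.68 to 1.12, and 0.84, 0.48 to 1.52), whose check genes were at 400, or from B-lineage gene cells (1.68, 0.98 to 3.12, and 0.52, 0.26 to 1.21), where they were at 203. Against early erythroid-like cells, with check genes at 355, Dnmt1 was at 0.71 (0.51 to 0.99) and Uhrf1 at 0.71 (0.35 to 1.63). Both genes were below those of Flt3 progenitor-like (0.66 and 0.33), megakaryocyte-like (0.46 and 0.39), early neutrophil-like (0.61 and 0.21), later neutrophil-like (0.59 and 0.28) and monocyte-like cells (0.51 and 0.18), whose check genes were at 501, 576, 852, 750 and 845.

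**Figure D5:**
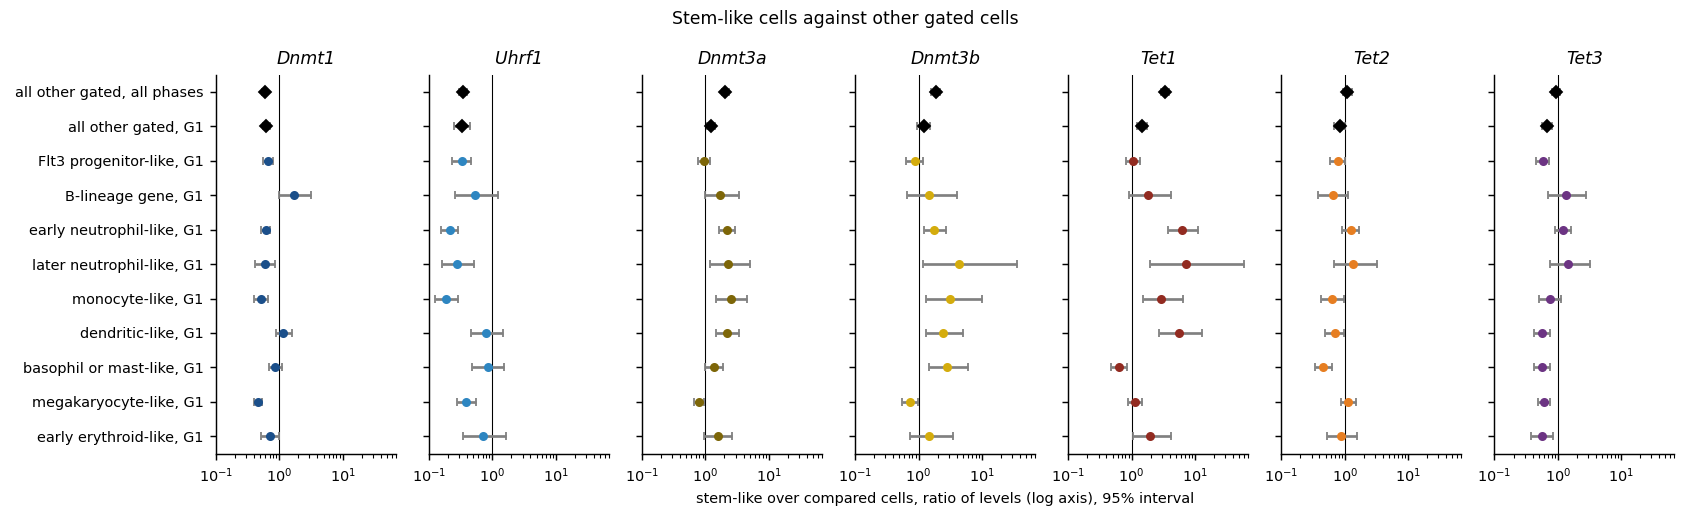
Ratio of the level in stem-like cells over the compared cells (x axis, log scale, 95% intervals), against all other gated cells in all phases and in G1 (black diamonds) and against each of 9 classes in G1 (coloured points). For Tet1 the ratio is 3.37 in all phases and 1.47 in G1, and it runs from 0.63 against basophil or mast-like to 7.22 against later neutrophil-like cells, the last with 2 Tet1 UMIs in the compared cells.

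Within the stem-like class, 237 cells with a UMI of Vwf, a gene of platelet-biased stem cells, were set against 296 cells without one. No member differed beyond counting error. The ratios were 1.12 for Dnmt1 (0.94 to 1.34), 0.80 for Uhrf1 (0.58 to 1.09), 1.12 for Dnmt3a (0.88 to 1.42), 1.26 for Dnmt3b (0.89 to 1.79), 0.92 for Tet1 (0.70 to 1.22), 1.11 for Tet2 (0.80 to 1.55) and 0.90 for Tet3 (0.68 to 1.20), so that changes of up to the bounds given were not detectable at this depth.

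Along the erythroid classes the maintenance pair and the remaining members separated. Among G2/M-called cells, 270 later and 532 early erythroid-like, Uhrf1 stood at 195 against 119 CPM (ratio 1.64, 1.54 to 1.75), the member higher by at least 1.5-fold, beside 10.6% of 9693 genes. Dnmt1 was at 229 against 176 (1.30, 1.23 to 1.38). In turn 4 members were lower by the same rule, beside 19.8% of genes: Dnmt3b at 2.06 against 9.76 (0.21, 0.12 to 0.35), a ratio under that of all but 0.887% of genes, Tet1 (0.54, 0.32 to 0.87), Dnmt3a (0.59, 0.44 to 0.77) and Tet2 (0.60, 0.44 to 0.81). Tet3 was at 31.4 against 40.9 (0.77, 0.66 to 0.88). The check genes moved with Uhrf1 and Dnmt1, the S-phase sum from 1493 to 1928 and the G2/M sum from 590 to 1077, and the median gene ratio was 0.91. Dnmt3b rested on 17 UMIs in the later class.

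Later neutrophil-like cells in G2/M had lower Dnmt3a (0.57, 0.38 to 0.83) and Dnmt3b (0.45, 0.23 to 0.78) than early neutrophil-like ones by at least 1.5-fold, beside 9.64% of 9375 genes and a median gene ratio of 0.88. Tet3 was lower by less (0.67, 0.48 to 0.93), while Dnmt1 (0.89, 0.78 to 1.02), Uhrf1 (0.91, 0.72 to 1.13), Tet1 (1.17, 0.64 to 2.003) and Tet2 (0.92, 0.67 to 1.23) did not differ beyond counting error. Dnmt3b rested on 13 UMIs in 105 later cells.

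A list of 26 partner genes of the pathway was read in the same comparisons. In S over G1, 24 had 50 or more UMIs, 4 were higher and 7 lower by at least 1.5-fold, beside 10.4% and 28.6% of all genes, so the lower count was near the background, and their median ratio of 1.07 lay above the median gene's 0.87. Hells, a remodelling helicase needed for methylation of repeats, was at 158 against 56.9 (ratio 2.77, 2.58 to 2.98), and Cdca7, its activator, at 1.55 (1.47 to 1.63). Ahcy, which clears the by-product of methyl transfer, was at 1.54 (1.28 to 1.86) and Mbd2, a reader of methylated DNA, at 1.51 (1.42 to 1.61). Within classes Hells kept 2.28 (2.12 to 2.46) and Cdca7 1.46 (1.38 to 1.55), whereas Ahcy was at 1.19 (0.96 to 1.48) and Mbd2 at 1.15 (1.07 to 1.24). Among the lower genes, the methyl-CpG-binding Zbtb4 (0.23, 0.17 to 0.29), Zfp57, which protects imprints (0.23, 0.15 to 0.34), the CXXC-domain gene Cxxc5 (0.36, 0.33 to 0.39) and Ogt, a glycosyltransferase that binds Tet proteins (0.41, 0.39 to 0.44), had the smallest ratios, and within classes Zbtb4 was at 0.60 (0.45 to 0.81), Ogt at 0.60 (0.56 to 0.64) and Cxxc5 at 0.74 (0.67 to 0.81). Zfp57 had too few UMIs to be averaged within classes, and 40 of its 75 UMIs in G1-called cells came from stem-like cells.

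In G1, stem-like cells were higher than other gated cells in 6 and lower in 9 of the 24 partner genes with 50 or more UMIs, beside 24.5% and 12.7% of all genes, so the higher count was near the background. Zfp57 (3.51, 2.18 to 5.70), Zbtb4 (3.23, 2.43 to 4.30), Zbtb38 (2.03, 1.79 to 2.31) and Cxxc5 (1.91, 1.71 to 2.14) led the higher ones. Hells (0.31, 0.25 to 0.39), Gadd45b (0.37, 0.25 to 0.53), Idh2 (0.51, 0.45 to 0.57) and Idh1 (0.56, 0.44 to 0.71) led the lower ones. Idh1 and Idh2 make 2-oxoglutarate, the co-substrate of the Tet enzymes, and Gadd45b is tied to demethylation. The median partner ratio was 0.96 beside 1.12 for all genes. Dnmt3l, the catalytically inactive partner of the de novo enzymes, gave 37 UMIs in the S-called and 6 in the G1-called cells, too few for a ratio by this rule. Along the erythroid classes in G2/M, 3 of 21 partner genes were lower by 1.5-fold (Ahcy, Apex1 and Tdg, at 0.57, 0.58 and 0.65) and none was higher, beside 19.8% and 10.6% of all genes.

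Across 31 groups of 20 or more cells of one class and phase, all from the same library, the genes most like each member were found by Pearson's r of log2(level + 10). Only genes with 500 or more UMIs that were no gate marker and not in the phase lists were compared. Other S-phase genes were not left out, and Lig1 and Pole below are among the S-phase check genes. For Uhrf1 these included Rpa2 (r = 0.97) and Lig1 (0.95), and for Dnmt1 Topbp1 (0.93), Dnajc9 (0.92) and Pole (0.91). Dnmt3a was closest to Vgll4 (0.90), Dnajc1 (0.90) and Cxxc5 (0.90), Dnmt3b to Ift74 (0.91), Hibadh (0.90) and Immp2l (0.89), Tet1 to Rbpms (0.92), Rgs1 (0.91) and Aff4 (0.91), Tet2 to Pik3cd (0.91), Rgs2 (0.90) and Iqgap1 (0.90), and Tet3 less closely to Cep170 (0.85), Ccdc88a (0.85) and Ppp2r1a (0.84). Among the members, the nearest pairs were Dnmt3a with Dnmt3b (0.87), Dnmt1 with Uhrf1 (0.86) and Dnmt3a with Tet1 (0.82), and the most opposed was Uhrf1 with Tet2 (-0.46). These describe groups that share depth and class and are no evidence of shared control.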

How the data were processed

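Lineage-negative, Kit-positive marrow cells were measured in 1 10x Chromium 3′ v3.1 library. The authors made the deposited counts (whole UMIs per gene and barcode, not normalized) with Cell Ranger 6.0.2 on mm10, per the labels and methods. The labels also describe a bulk RNA kit, which the form of the values contradicts. Cells were kept as in the study (UMIs between 1000 and 50000, genes between 1000 and 6500, mitochondrial share below 7%), and those under 5000 UMIs (99) were left out.

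For gates and phases each cell was thinned to 5000 UMIs (random seed 1). A cell joined the class with the highest mean z-score (log counts, limited at 5) over its markers, if that score was at least 0.5, led by 0.25 and 2 markers were detected. Of 13 marker lists, each marker needed 100 UMIs. Phases were scored in scanpy 1.11.5 with the lists of Seurat 5.3.0, without Uhrf1, Hells and Cdca7, and a cell with both scores below 0 was called G1. Doublets (Scrublet, expected rate 6%) numbered 265 of the cells analysed and were kept.

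Levels are summed UMIs per 1000000 UMIs with exact Poisson intervals, ratios have exact conditional binomial and shares Clopper-Pearson intervals (95%, scipy 1.17.1), and averages within classes are Mantel-Haenszel rate ratios. A gene was called past 1.5-fold, with an interval off 1 and 50 or more UMIs in both groups together. Named were the 7 members, up to 4 partner genes called in each direction by size of ratio, and 3 most alike genes per member, of which 1 is not reported here. The partner genes of the erythroid comparison and Dnmt3l were named after their values were seen. The ratio step was tested on simulated data. The members and lists were chosen with earlier results of these data known. Alternatives were other gates, filters, totals, depths and phase lists.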

Additional observations from a re-analysis of the deposited data

How the results depend on the processing

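All values are from 1 library, and intervals cover counting error only, so depth limits the rarer members in small classes and animal-to-animal spread is unknown. No paired analysis was possible because there is 1 sample. Of 84 recomputed ratios of S-called over G1-called cells, 54 stayed within the interval of the reported value, as did 83 of 91 stem-like ratios, 358 of 364 class levels and 254 of 260 shares within Dnmt3 or Tet. Of 16 partner gene counts, 12 stayed within 1.5 times. The cause of the changes below was not tested.

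For S over G1, Uhrf1 (4.38 as reported) moved to 4.97 with stricter gates, 4.96 with Uhrf1, Hells and Cdca7 in the S list, and 5.80 with phases scored at full depth, where Dnmt3b was at 0.672 and Tet1 at 0.355. Without doublet calls Uhrf1 was at 5.22, Dnmt3b at 0.643, Tet1 at 0.336 and Tet2 at 0.687. With a mitochondrial share under 5%, Dnmt1 was at 1.84, Uhrf1 at 3.77 and Tet2 at 0.855, and with all deposited barcodes of 5000 or more UMIs Dnmt1 was at 1.91. As a mean over cells Dnmt1 was at 2.41 and Uhrf1 at 5.64, and with cells thinned to 5000 UMIs Dnmt1 at 2.33, Uhrf1 at 5.75, Dnmt3b at 0.978 and Tet2 at 0.676. The remaining S over G1 alternatives were chosen after seeing the data. Divided by the median gene ratio, the values were 2.35 for Dnmt1, 5.02 for Uhrf1, 0.723 for Dnmt3a, 0.906 for Dnmt3b, 0.505 for Tet1, 0.880 for Tet2 and 0.985 for Tet3. Stratified by class, Uhrf1 was at 3.36, Dnmt3a at 0.899 and Tet1 at 0.787, and Dnmt3b reversed to 1.17.

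For the stem-like ratio in G1, using all phases gave 2.07 for Dnmt3a, 1.87 for Dnmt3b, 3.37 for Tet1, 1.10 (interval 0.925 to 1.29) for Tet2, on the other side of 1, and 0.945 for Tet3, and thinning gave 0.566 for Tet3. With the other classes weighted equally, an alternative added after seeing the data, Dnmt3a was at 1.49 and Dnmt3b at 1.57. At 2-fold in place of 1.5-fold, 1 partner gene was higher (4 as reported) and 4 were lower (7) in S over G1, and 3 were higher (6) and 2 lower (9) in stem-like cells. Among class levels, Dnmt3b in T or NK gene cells went from 24.0 to 3.73 CPM without doublet calls. With a mitochondrial share under 5%, Dnmt1 in stem-like cells went from 101 to 124 and Uhrf1 from 34.5 to 48.2. In B-lineage gene cells Dnmt1 went from 137 to 187 and Tet3 from 35.9 to 60.4 with that filter.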
